A study of Mus musculus with 4 samples.

Results

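The collagen genes of the mouse hair follicle bulge were examined in RNA sequencing libraries from 4 skin samples. A gene was included if GENCODE lists it as protein-coding under a collagen chain symbol and if it held at least 10 counts in at least 2 of the 4 libraries. Of 44 such collagen genes among the 55536 genes of the deposited table, 29 met the count rule, and all 29 were among the 14259 genes tested. The bulge is the niche of the hair follicle stem cells. The 2 knockout samples came from Cdh5CreERT2; Alk1 flox/flox mice, in which the endothelial Cdh5 promoter drives a tamoxifen-dependent Cre that removes Alk1 (Acvrl1), a receptor for BMP ligands. The 2 control samples came from littermates that lacked Cre. The sources used here do not say whether the controls also carried floxed alleles, whether a sample was 1 mouse or a pool, or how the bulge cells were isolated. All mice were on a C57BL/6 background, were given tamoxifen on postnatal day 17 (100 µg per g of body weight, controls included), and skin was taken on postnatal day 20. The study asks how endothelial Alk1 loss acts on hair follicle stem cells.

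Collagens are extracellular or membrane proteins built from a rope of 3 chains, and each chain gene is named by its type and chain number. Fibrillar collagens such as types I, III and V form the tensile fibrils of the dermis. Type IV collagen forms the sheet of every basement membrane, and type VII anchors the epidermal basement membrane to the dermis. Transmembrane collagens stay in the plasma membrane. Among them, type XVII is part of the hemidesmosome, the junction that fixes basal keratinocytes to the basement membrane, and is known for its role in keeping hair follicle stem cells in place.

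Libraries held 16326906 to 29130974 counts, the deepest being control 2. Acvrl1 (chromosome 15, 101128522 to 101145336) measured 21.6 and 24.3 CPM (counts scaled to library size) in controls against 17.9 and 23.1 CPM in knockouts (edgeR log2 fold change -0.16 ± 0.19 (SE), adjusted p = 0.76). Deletion was directed at endothelium, so this level does not check the labels. Bulge keratinocyte markers were abundant in every library, with Krt15 between 29088 and 36017 CPM and Cd34 between 1328 and 1949 CPM. The 8 endothelial markers summed to 9.28 and 4.67 CPM in controls and to 4.27 and 15.4 CPM in knockouts. Cldn5 held no counts in 3 libraries, Cdh5 was at most 1.38 CPM and Pecam1 at most 3.77 CPM, while Tek measured 2.69 and 2.07 CPM against 3.17 and 10.6 CPM. Markers of interfollicular differentiation varied within groups, with a summed level of 10384 and 3005 CPM in controls against 6454 and 2585 CPM in knockouts.

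Promoter sequence was taken from RefSeq (GRCm38.p6), where 23 of the 29 collagens had an entry. The first 3 stretches below are upstream of Col17a1, the most abundant collagen, of Col7a1, the most abundant collagen of which the knockouts lay below the controls, and of Col5a1, the collagen of smallest p. The last 2 are shown because the type IV genes lie head to head in pairs. They cover the bases from the Col4a2 start to the Col4a1 start, where both first exons overlap by 22 bases, and the 71 bases between the Col4a4 and Col4a3 starts. Each is written 5′ to 3′ on the strand of the gene, or on the plus strand for the pairs, and annotated exons were trimmed from the upstream stretches. Capitals mark matches, on either strand, to the TATA box (TATAAA), the CAAT box (CCAAT), the GC box (GGGCGG) or the AP-1 site (TGANTCA), none of which overlap here.
Col17a1 (chr19:47692095-47692292, minus strand): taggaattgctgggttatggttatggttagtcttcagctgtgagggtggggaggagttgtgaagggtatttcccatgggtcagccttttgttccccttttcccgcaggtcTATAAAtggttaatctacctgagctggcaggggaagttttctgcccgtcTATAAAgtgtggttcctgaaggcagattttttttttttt
Col7a1 (chr9:108953336-108953585, plus strand): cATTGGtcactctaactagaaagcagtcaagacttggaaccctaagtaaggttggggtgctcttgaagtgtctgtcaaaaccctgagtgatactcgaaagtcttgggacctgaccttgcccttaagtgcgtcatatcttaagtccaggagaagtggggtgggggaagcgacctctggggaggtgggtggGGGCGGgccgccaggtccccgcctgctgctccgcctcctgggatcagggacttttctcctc
Col5a1 (chr2:27886175-27886424, plus strand): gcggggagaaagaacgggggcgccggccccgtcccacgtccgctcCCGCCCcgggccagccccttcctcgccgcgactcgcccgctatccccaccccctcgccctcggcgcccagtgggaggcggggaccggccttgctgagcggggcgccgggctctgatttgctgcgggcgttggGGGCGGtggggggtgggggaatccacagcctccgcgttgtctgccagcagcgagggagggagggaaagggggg
Col4a1 and Col4a2 (chr8:11312805-11312826): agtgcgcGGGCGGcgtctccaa
Col4a4 and Col4a3 (chr1:82586850-82586920): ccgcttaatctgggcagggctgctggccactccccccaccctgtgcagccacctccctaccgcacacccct

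The Col17a1 stretch is 45.5% G and C and holds 2 TATA boxes, while the Col5a1 stretch is 76.4% G and C and holds 2 GC boxes and no TATA box. Over the 250 bases upstream of each start, a GC box was present in 17 of the 25 collagen windows (68.0%), against 32.7% of all 32851 windows in the table. A TATA box was present in 3 (12%, against 12.4%), a CAAT box in 9 (36.0%, against 33.8%) and an AP-1 site in 1, that of Col6a1 (4.0%, against 6.75%). Matches are descriptions of sequence only.

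The 29 collagens took 1.51% and 1.69% of all counts in controls against 1.33% and 1.34% in knockouts. Col17a1 (chromosome 19, 47646344 to 47692094, GRCm38) alone made up 53.5% to 62.9% of those counts and ranked 4 among all tested genes by CPM. Per kilobase of exon it averaged 1396 CPM over the 4 libraries. Col8a2, a chain of the short network collagen type VIII, followed at 243 CPM per kilobase. Next came Col7a1 at 127, Col6a1 at 115 and Col18a1 at 114 CPM per kilobase. These last 3 could not be ordered, because their libraries ran from 94.4 to 160, from 75.9 to 158 and from 94.6 to 145 CPM per kilobase.

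**Figure D1:**
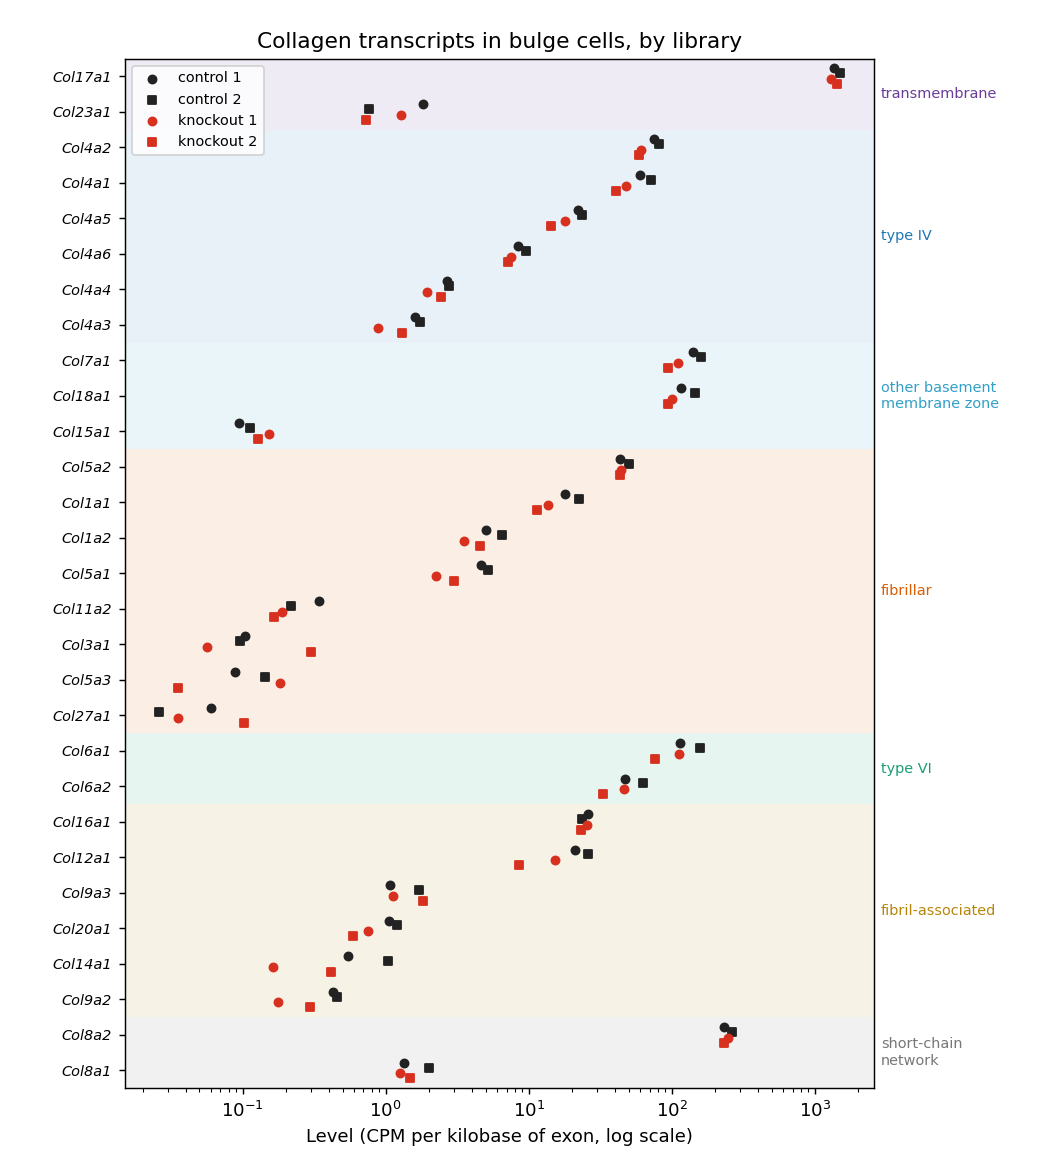
Level of each of the 29 collagens in every library, in CPM per kilobase of exon on a log scale, grouped by structural class and ordered by mean within a class. Circles are library 1 and squares library 2 of each group, black for control and red for knockout. Col17a1 sits near 1396 CPM per kilobase, and all 6 type IV chains have both red symbols to the left of both black ones.

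No collagen passed the edgeR quasi-likelihood test at an adjusted p of 0.05 (0 of 29, where 0.00701% of all tested genes passed, 1 of 14259). At an unadjusted p under 0.05, 12 of 29 were lower in knockouts and 0 higher, against 5.94% and 4.8% of tested genes. DESeq2 called Col5a1 alone (0.54% of its 12600 tested genes were called lower), as did edgeR under a replicate block (0.568%). Without a count filter edgeR called 9 collagens, all lower (1.11% of 24037 genes). The log2 fold change was below 0 for 25 of 29 collagens (52.5% of tested genes), with a median of -0.42 where all tested genes had -0.02. Both knockouts lay below both controls for 18 of 29 (23.6% of tested genes) and above for 1, Col15a1 (21.3%). The 19 collagens with a mean of at least 10 CPM were all below 0, and the 4 above 0 were among the 10 rarer ones. By class, both knockouts were below both controls for 6 of 6 type IV chains, 2 of 3 other chains of the basement membrane zone, 2 of 2 type VI, 4 of 6 fibril-associated, 4 of 8 fibrillar, 0 of 2 transmembrane and 0 of 2 short network chains. Differences between classes were not tested. The counts over all collagens leaned on control 2, the library with the largest collagen share. Without it, 20 of 29 were below 0, the median was -0.27 and 1 collagen was lower at an unadjusted p under 0.05 (3% of tested genes). In bulk libraries fewer cells of a type and less RNA per cell cannot be told apart.

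**Figure D2:**
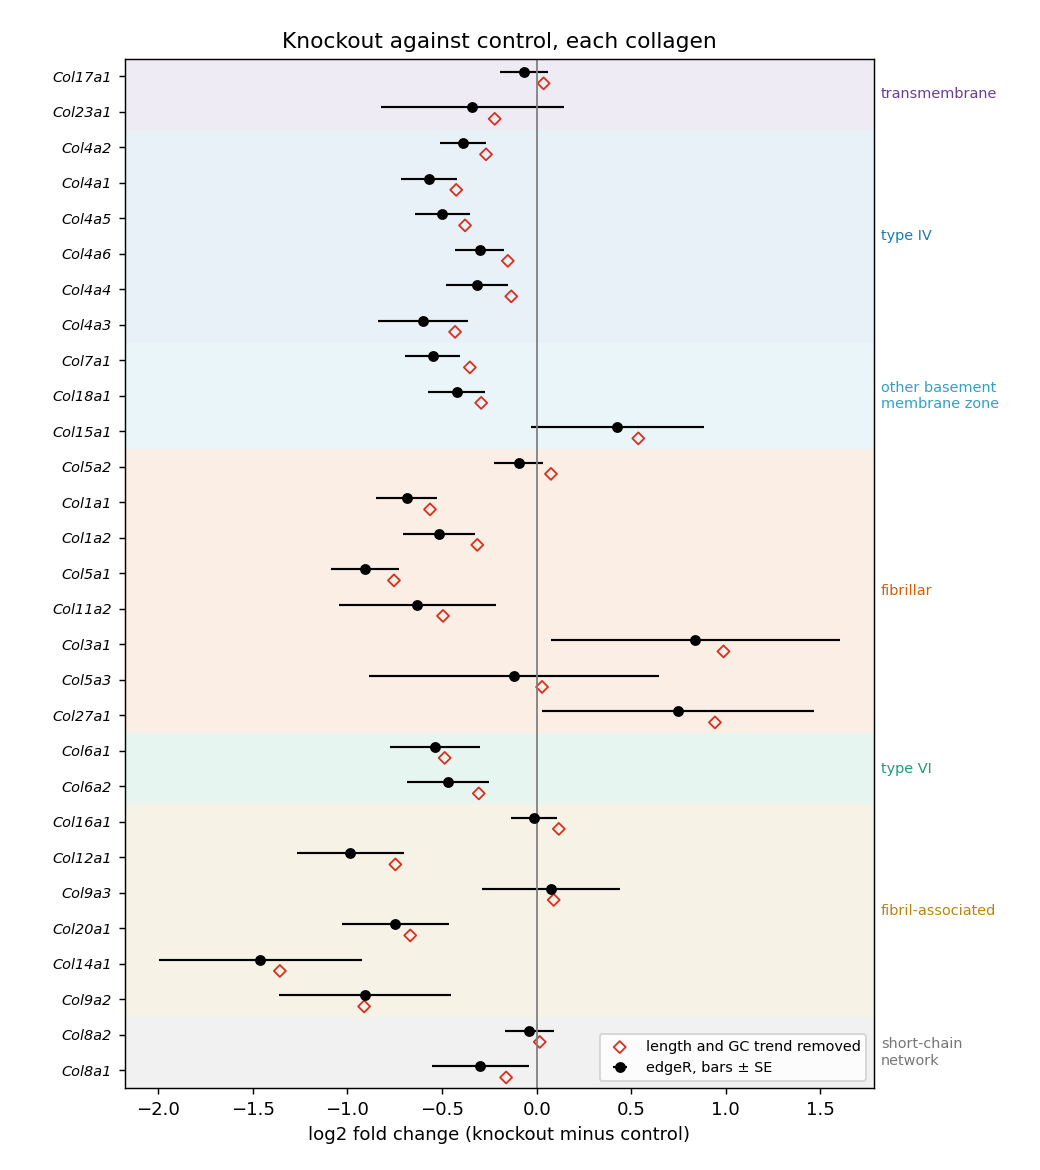
Log2 fold change of each collagen, knockout minus control, from edgeR (black, bars ± SE, 2 libraries per group) and with the trend over GC content and exon length taken out (open red diamonds). The type IV chains run from -0.60 to -0.30, and Col17a1, Col8a2, Col5a2 and Col16a1 lie within 0.10 of 0 in the black series.

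The transmembrane class held 2 of its 4 chains, and neither parted the groups. Col17a1 measured 8224 and 8942 CPM in controls against 7820 and 8588 CPM in knockouts. The groups overlapped, with a log2 fold change of -0.07 ± 0.13 (edgeR adjusted p = 0.86), and without control 2 the value was 0.02. Among its hemidesmosome partners, Itgb4, the integrin chain that pairs with alpha 6, gave 0.00 ± 0.13 and Itga6 -0.07 ± 0.12. Plec, which encodes the linker plectin, measured 1151 and 1139 CPM in controls against 868 and 933 CPM in knockouts (-0.35 ± 0.12, adjusted p = 0.43). No partner of the 5 listed passed the test. Col23a1, a transmembrane collagen of low level, measured 10.4 and 4.40 CPM in controls against 7.40 and 4.17 CPM in knockouts. It was higher in library 1 of both groups, and without control 1 its log2 fold change turned from -0.34 ± 0.48 to 0.39. Col13a1 and Col25a1, the other 2 of the class, held at most 3 and 5 counts in a library.

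All 6 type IV chains were present, and each was lower in both knockouts than in both controls (23.6% of tested genes were). The class median was -0.44, and -0.36 without control 2. Col4a1 and Col4a2, the chains of the general basement membrane network (chromosome 8, 11198423 to 11312826 and 11312805 to 11449287), were the most abundant. Col4a1 measured 450 and 535 CPM in controls against 357 and 306 CPM in knockouts, a log2 fold change of -0.57 ± 0.15 (edgeR adjusted p = 0.43). Col4a2 measured 495 and 543 CPM against 400 and 392 CPM, a log2 fold change of -0.39 ± 0.12 (adjusted p = 0.43). The groups did not overlap for either gene of this head-to-head pair, and control 2 was the highest library for both.

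Col4a5 and Col4a6, neighbours on chromosome X whose products form the network of skin basement membranes, showed the same order. Col4a5 measured 149 and 158 CPM in controls against 121 and 96.4 CPM in knockouts (-0.50 ± 0.14, edgeR adjusted p = 0.43). Col4a6 measured 67.0 and 76.8 CPM against 60.2 and 56.7 CPM (-0.30 ± 0.13, adjusted p = 0.47). Knockout 2 was the lowest library for both. The remaining pair, Col4a3 and Col4a4, best known from the kidney filter, was much rarer, at 1.38 and 2.45 CPM per kilobase. Col4a3 measured 15.9 and 17.2 CPM in controls against 8.83 and 13.1 CPM in knockouts (-0.60 ± 0.24, adjusted p = 0.46). Col4a4 measured 28.4 and 29.3 CPM against 20.7 and 25.7 CPM (-0.32 ± 0.16, adjusted p = 0.51), and here knockout 1 was lowest.

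The balance between paired chains was also read in each library, as a ratio of levels per kilobase. Col4a1 to Col4a2 stood at 0.806 and 0.875 in controls against 0.792 and 0.692 in knockouts. Col4a5 to Col4a6 stood at 2.64 and 2.43 in controls against 2.38 and 2.02 in knockouts. In both pairs the knockout ratios were below the control ratios, as they were for Col4a3 to Col4a4, at 0.596 and 0.627 against 0.454 and 0.541. The groups overlapped for Col1a1 to Col1a2, at 3.56 and 3.46 against 3.87 and 2.52, and for Col8a1 to Col8a2, at 0.0058 and 0.00769 against 0.00507 and 0.0064. Knockout ratios below control ratios were not confined to type IV pairs. Both knockouts were also below both controls for Col6a1 to Col6a2, which averaged 2.46 in controls against 2.34 in knockouts. The same held for the rare Col9a2 to Col9a3, at 0.397 and 0.268 against 0.157 and 0.161. It also held for Col5a1 to Col5a2, given below with the fibrillar chains. How often other gene pairs show this order was not tested. With 2 libraries per group an exact permutation test cannot go below 0.333, so no ratio was tested.

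Further collagens of the basement membrane zone were abundant. Col7a1, the anchoring fibril chain (chromosome 9, 108953586 to 108984875), measured 1445 and 1649 CPM in controls against 1145 and 971 CPM in knockouts. The groups did not overlap (log2 fold change -0.55 ± 0.15, edgeR adjusted p = 0.43). Col18a1, which carries the endostatin fragment at its end, measured 812 and 1015 CPM against 699 and 664 CPM (-0.42 ± 0.15, adjusted p = 0.43). Col15a1, its closest relative, was at trace level, with 0.599 and 0.711 CPM in controls against 0.965 and 0.814 CPM in knockouts, on 10 to 21 counts a library. It was higher in both knockouts at 0.43 ± 0.46 (adjusted p = 0.74), an error larger than the difference.

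Partners of these collagens in the basement membrane were set beside them. Of 12 listed genes 11 were tested, 9 had a log2 fold change below 0 (52.5% of all tested genes did), and 0 passed. Lama5, a laminin chain, measured 316 and 357 CPM in controls against 177 and 248 CPM in knockouts (-0.67 ± 0.19, edgeR adjusted p = 0.43). Hspg2, which encodes perlecan, measured 150 and 166 CPM against 87.8 and 129 CPM (-0.54 ± 0.20). For both, knockout 1 was the lowest library. Lamc1, a further laminin chain, measured 137 and 154 CPM against 108 and 113 CPM (-0.40 ± 0.12), and Agrn, which encodes agrin, 1965 and 2163 CPM against 1593 and 1555 CPM (-0.39 ± 0.12). For these 4 genes, each with an adjusted p of 0.43, both knockouts lay below both controls. Their exons add up to 8272 (Lamc1) to 14307 bases (Hspg2), in the longest 2 length deciles of tested genes. In those deciles 44.1% of genes had both knockouts below both controls, and 16.3% were lower at an unadjusted edgeR p under 0.05. Lamb3, a chain of the laminin bound by hemidesmosomes, went the other way at 0.24 ± 0.14 (adjusted p = 0.55).

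The 8 fibrillar chains were uneven in level and in fold change. The chains with a positive log2 fold change, Col3a1 and Col27a1, were rare, while the most abundant, Col5a2, gave -0.09. A relation of fold change to level was not tested. Log2 fold changes lay between -0.91 and 0.84, with a class median of -0.32, which moved to -0.12 without control 2, to -0.53 and -0.56 without knockout 1 and knockout 2, to -0.61 over chains with at least 50 counts in 2 libraries and to -0.51 with limma-voom. Col5a1 (chromosome 2, 27886425 to 28039514), a regulator of fibril diameter, had the smallest p of all collagens. It measured 39.6 and 43.9 CPM in controls against 19.2 and 25.4 CPM in knockouts, a log2 fold change of -0.91 ± 0.18 (edgeR adjusted p = 0.43; DESeq2 adjusted p = 0.023). The control libraries were close to each other and well above both knockouts. Its partner chain Col5a2 measured 417 and 483 CPM against 427 and 416 CPM (-0.09 ± 0.13, edgeR adjusted p = 0.80), with overlapping groups. Per kilobase, the Col5a1 to Col5a2 ratio was 0.107 and 0.103 in controls against 0.0507 and 0.0689 in knockouts.

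Type I collagen, the main fibril of dermis, was present at moderate level. Col1a1 measured 117 and 148 CPM in controls against 89.5 and 75.3 CPM in knockouts (-0.69 ± 0.16, edgeR adjusted p = 0.43). Col1a2 measured 62.3 and 80.9 CPM against 43.8 and 56.5 CPM (-0.52 ± 0.19, adjusted p = 0.43). Both knockouts lay below both controls for each chain. Their ratio per kilobase of exon was 3.36 on average and 1.60 per kilobase of the longest transcript, since the annotated exons of Col1a2 add up to 12426 bases and its longest transcript to 5348.

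Col3a1, which accompanies type I collagen in dermal fibrils, was close to absent. It measured 1.02 and 0.948 CPM in controls against 0.552 and 2.97 CPM in knockouts. Knockout 2 alone was high, and without it the log2 fold change turned from 0.84 ± 0.76 to -0.82. Col5a3, Col11a2 and Col27a1, minor fibrillar chains, ranged from 0.239 to 2.33 CPM over all libraries, and their differences were within 2 times their SE (adjusted p from 0.60 to 0.96). Col2a1, Col11a1 and Col24a1, which did not meet the count rule, held at most 3, 8 and 8 counts in a library.

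Type VI collagen, which forms beaded microfibrils next to basement membranes, was represented by 2 of 6 chains. Col6a1 measured 501 and 692 CPM in controls against 489 and 333 CPM in knockouts (-0.54 ± 0.24, edgeR adjusted p = 0.47). Col6a2, its neighbour on chromosome 10, measured 392 and 527 CPM against 387 and 277 CPM (-0.47 ± 0.22, adjusted p = 0.49). Control 1 and knockout 1 differed little for both chains, and the separation of groups came from control 2 at the top and knockout 2 at the bottom. Another chain, encoded by Col6a3 or a relative, completes the molecule. Col6a3 held 7 and 4 counts in controls against 2 and 3 in knockouts, and Col6a6 4 and 19 against 1 and 3. Col6a4 and Col6a5 held no counts, which allows up to 0.18 CPM in control 1, the shallowest library.

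**Figure D3:**
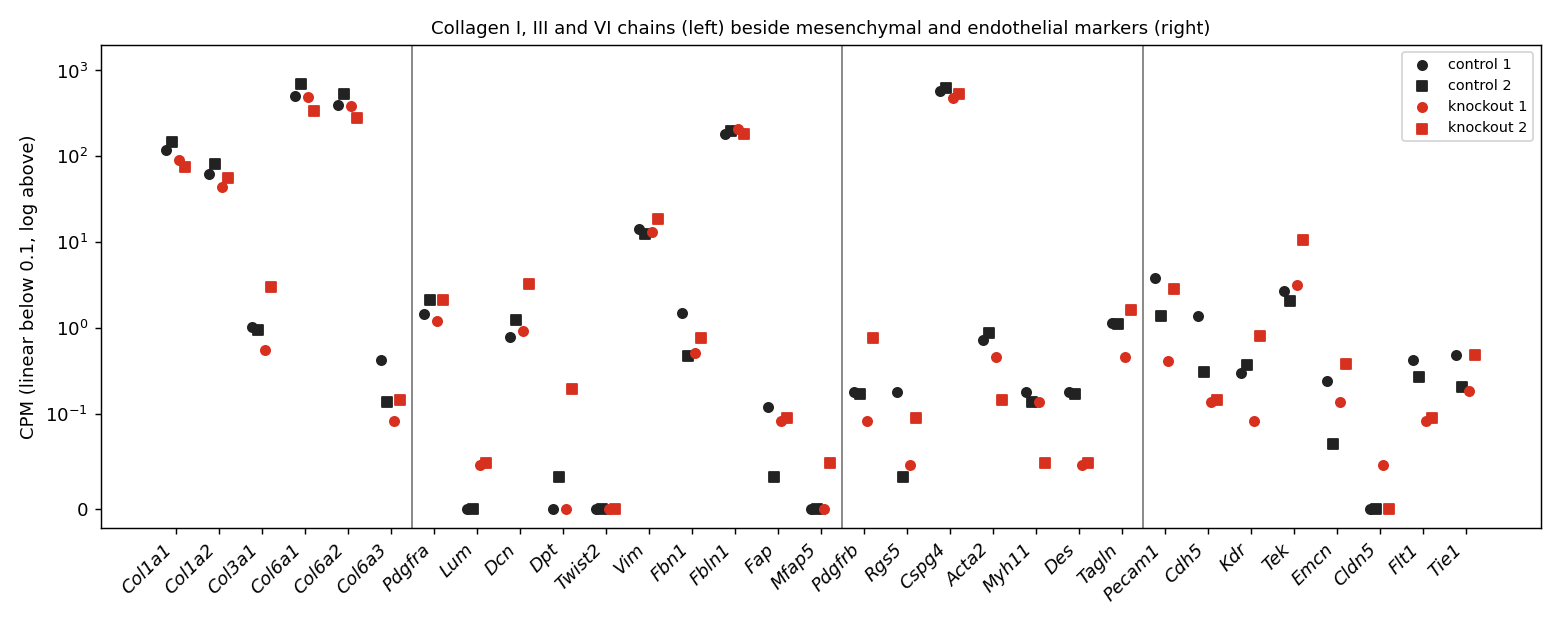
CPM in each library (linear below 0.1, log above) of type I, III and VI chains on the left and of all listed markers of fibroblasts, pericytes and smooth muscle, and endothelium on the right; symbols as in the plot of levels. Col1a1, Col1a2, Col6a1 and Col6a2 lie above 43 CPM in every library, while Col3a1, Col6a3 and the markers other than Fbln1, Vim, Cspg4 and, in knockout 2, Tek lie below 4 CPM.

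Since types I, III and VI are typical products of fibroblasts, markers of mesenchymal cells were read beside them. Of 10 fibroblast markers, 5 were abundant enough to be tested, and their summed level was 198 and 215 CPM in controls against 223 and 207 CPM in knockouts. Fbln1 made up 180 to 208 CPM of that sum. Twist2 held no counts in any library, Lum none in controls against 0.046 and 0.048 CPM in knockouts, and Dpt at most 0.192 CPM. Dcn ran from 0.778 to 3.26 CPM, and Pdgfra was at most 2.13 CPM. Of 7 pericyte and smooth muscle markers 3 were tested. Their sum, 581 and 629 CPM in controls against 484 and 530 CPM in knockouts, was nearly all Cspg4, while Rgs5 and Pdgfrb were at most 0.18 and 0.766 CPM. Vim ran from 12.4 to 18.8 CPM. The markers did not share an order: Dcn, Vim and Pdgfrb were highest in knockout 2, as Col3a1 was, Fbn1 in control 1, and Fbln1 in knockout 1. Pdgfra was highest in control 2, at 2.13 CPM against 2.11 CPM in knockout 2. Dpt, Fap and Rgs5 held at most 4, 2 and 3 counts in a library, too few to order the libraries. Acta2 measured 0.718 and 0.881 CPM in controls against 0.46 and 0.144 CPM in knockouts. Of 6 dermal papilla markers 3 were tested, all above 0, and 0 passed. Their sum was higher in both knockouts, at 23.2 and 29.9 CPM in controls against 40.0 and 37.1 CPM in knockouts. Wif1 measured 15.3 and 20.4 CPM against 26.8 and 29.1 CPM (0.64 ± 0.19, edgeR adjusted p = 0.43), while Crabp1, from 6.90 to 12.3 CPM, overlapped between groups. The part of these cells in the collagen values was not tested.

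Fibril-associated collagens, which decorate the surface of fibrils, gave the lowest class median, -0.83 over 6 members. Col12a1 measured 322 and 397 CPM in controls against 233 and 130 CPM in knockouts (-0.99 ± 0.28, edgeR adjusted p = 0.43). The groups did not overlap, but the knockouts also differed from each other. Leaving out knockout 2 gave -0.62 (edgeR adjusted p = 0.27) and leaving out knockout 1 gave -1.48 (adjusted p = 0.047), in fits where the lone knockout library is assumed to vary like the controls. Col14a1 measured 3.83 and 7.28 CPM against 1.15 and 2.92 CPM (-1.46 ± 0.54, adjusted p = 0.43), on 25 to 215 counts a library. Col20a1 measured 5.45 and 6.16 CPM against 3.86 and 3.07 CPM (-0.75 ± 0.28, adjusted p = 0.44). Col16a1, close to Col12a1 in level per kilobase (24.6 and 17.8 CPM), gave 174 and 159 CPM in controls against 173 and 157 CPM in knockouts. Its log2 fold change of -0.01 ± 0.12 (adjusted p = 0.97) changed sign with the normalization. Col9a2 was lower in both knockouts at -0.91 ± 0.46 (adjusted p = 0.51) on 12 to 42 counts. Col9a3 measured 4.13 and 6.60 CPM in controls against 4.37 and 7.04 CPM in knockouts (0.08 ± 0.37, adjusted p = 0.95).

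The short network chain Col8a2 (chromosome 4, 126286793 to 126314330) was the second most abundant collagen per kilobase. It measured 1036 and 1173 CPM in controls against 1118 and 1033 CPM in knockouts, with overlapping groups and a log2 fold change of -0.04 ± 0.13 (edgeR adjusted p = 0.92). Its partner Col8a1 measured 10.5 and 15.7 CPM against 9.88 and 11.5 CPM (-0.30 ± 0.26, adjusted p = 0.68). Per kilobase, Col8a1 reached 0.00624 of the level of Col8a2 on average. Col10a1, the cartilage member of the class, held no counts.

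The rule on counts left out 15 collagens, of which 6 held no counts at all: Col10a1, Col22a1, Col26a1, Col6a4, Col6a5 and Col9a1. Just outside the rule lay Col6a6, with 19 counts in control 2 and at most 4 elsewhere. Just inside lay Col27a1, with 13 and 10 counts in controls against 10 and 28 in knockouts, and Col5a3, with 10 and 29 against 27 and 5.

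Measured by merged exons, collagen genes are long, and long genes as a whole were lower in the knockouts. This length can exceed the longest transcript, as for Col1a2 (12426 against 5348 bases). Exon lengths of the 29 ran from 3095 bases (Col9a2) to 15228 (Col12a1), with a median of 7013 against 4180 for tested genes. The median log2 fold change of tested genes went from 0.12 in the shortest length decile to -0.07, -0.13 and -0.19 in deciles 8, 9 and 10, which held 10, 6 and 7 collagens. Of the 29 collagens, 22 were below the median of their own decile. Among the 13 in the longest 2 deciles, 11 were below 0 (72.2% of the 2852 tested genes there), 6 were lower at an unadjusted p under 0.05, against 16.3%, and 9 had both knockouts below both controls (44.1%). Plec, Pxdn, Lama5, Hspg2, Lamc1 and Agrn, all lower in both knockouts, lie in these 2 deciles too. Other pathway genes of these deciles had a positive log2 fold change: Itga1 (0.99), Ddr2 (0.29), Mia2 (0.28), Timp3 (0.27), Klhl12 (0.22) and Bmp1 (0.11). Further ones, such as Lama3 (-0.12) and Dst (-0.03), were slightly negative. Across the 29 collagens themselves, which share the 4 libraries, Spearman's rho between log2 fold change and exon length was -0.04.

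**Figure D4:**
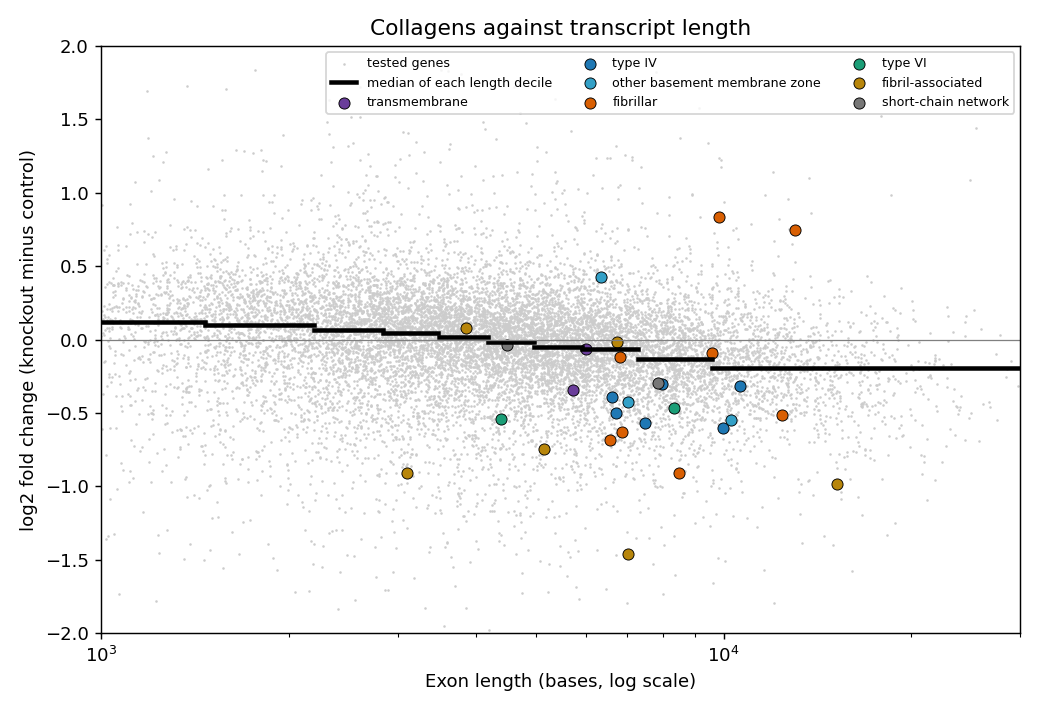
Log2 fold change (knockout minus control) against exon length on a log scale, for tested genes (grey) and the collagens, coloured by class. Black bars are the medians of length deciles, from 0.12 in the shortest to -0.19 in the longest; 22 of 29 collagens lie below the bar of their decile.

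Taking a spline trend over GC content and exon length out of each library brought the collagens closer to 0. The median became -0.29, with all tested genes at 0.04, and 20 of 29 were below 0 (44.4% of tested genes). At an unadjusted p under 0.05, 3 remained on the lower side, Col5a1 (-0.75), Col1a1 (-0.56) and Col14a1 (-1.36), against 2.73% of tested genes. In the longest 2 length deciles 1 of 13 remained (4.52%). By class, the median moved to -0.32 for type IV, -0.14 for fibrillar, -0.71 for fibril-associated and -0.09 for transmembrane collagens. All 6 type IV chains stayed below 0 and Col17a1 moved to 0.04. No collagen passed at an adjusted p of 0.05, and the smallest edgeR adjusted p was 0.52.

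Class medians in single libraries, centred on each gene's mean, showed the spread behind these differences. For type IV chains the values were 0.15 and 0.28 for controls against -0.18 and -0.20 in knockouts, and for fibrillar chains 0.12 and 0.30 against -0.32 and -0.16. For the 2 transmembrane chains the medians were 0.36 and -0.19 against 0.08 and -0.26, with the order set by Col23a1. Control 2 exceeded control 1 for 24 of the 29 collagens, whereas knockout 2 exceeded knockout 1 for 11.

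Genes that make collagen were read in lists by step. Of 18 genes of hydroxylation, glycosylation and folding, 16 were tested, 9 were below 0, 0 passed, and the median was -0.04, near the -0.02 of all tested genes. P4hb, a subunit of the prolyl hydroxylase, measured 489 and 497 CPM in controls against 581 and 498 CPM in knockouts (0.13 ± 0.13, edgeR adjusted p = 0.72). Serpinh1, the collagen chaperone, measured 473 and 624 CPM against 578 and 349 CPM (-0.24 ± 0.26, adjusted p = 0.74). Serpinh1 was highest in control 2 and lowest in knockout 2, an order shared by Col6a1, Col6a2, Col1a1, Col4a1, Col7a1, Col12a1 and further collagens. Of 11 export and propeptide processing genes 10 were tested and 7 were below 0, with a median of -0.26, and none passed. Mia3, which loads procollagen into vesicles, measured 58.8 and 57.4 CPM in controls against 60.4 and 54.7 CPM in knockouts (-0.01 ± 0.12, adjusted p = 0.97). Bmp1, a procollagen protease, measured 56.7 and 54.5 CPM against 50.9 and 69.4 CPM (0.11 ± 0.17, adjusted p = 0.82), and the groups overlapped for both.

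Cross-linking, degradation and receptor genes were mixed, and 0 passed in any of these lists. Of 7 cross-linking genes 5 were tested, with 2 below 0. Pxdn, the peroxidase that cross-links type IV collagen, measured 34.4 and 33.7 CPM in controls against 23.9 and 22.3 CPM in knockouts (-0.56 ± 0.14, edgeR adjusted p = 0.43). The lysyl oxidase gene Lox was at most 0.203 CPM. Of 14 degradation genes 7 were tested, with 4 below 0. Mmp14, a membrane-bound collagenase, was higher in both knockouts, at 205 and 236 CPM in controls against 265 and 501 CPM in knockouts (0.80 ± 0.29, adjusted p = 0.43). Of 8 receptor genes 6 were tested, with 3 below 0. Of the 4 listed integrin alpha chains that bind collagen, 2 had an unadjusted p under 0.05, in opposite directions. Itga1 measured 29.3 and 16.7 CPM against 41.8 and 48.8 CPM (0.99 ± 0.27), and Itga2 75.5 and 86.6 CPM against 59.1 and 63.4 CPM (-0.41 ± 0.13), each with an adjusted p of 0.43. Itga10 was at trace level and gave -0.42 ± 0.40 (adjusted p = 0.70), and Itga11, at most 0.287 CPM, was not tested.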

How the data were processed

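The authors deposited raw counts per gene for directional polyA-selected libraries, per the labels' protocols. Per the submitters' processing notes, Trim Galore 0.6.0, cutadapt, FastQC, STAR 2.7.0e and DESeq2 1.26.0 were used with GRCm38 (mm10). How reads were assigned to genes, with which strand option and annotation release, was not given in the sources used here. Symbols, positions and lengths came from GENCODE M21 (all 55536 identifiers matched). Of the 29 collagens, 9 share exon bases with another annotated gene, at most 563 (Col4a3), and such reads cannot be told apart here.

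Genes were kept by filterByExpr and compared with the quasi-likelihood test of edgeR 4.0.16 in R 4.3.3 (TMM, robust, no covariates). P-values were adjusted by Benjamini-Hochberg over 14259 genes, with a threshold of 0.05. SE is the size of the log2 fold change divided by the square root of F. CPM used effective library sizes, and levels between genes are per kilobase of merged exons. In simulated counts for this comparison (14259 genes), the share of changed genes recovered was 18% at 1.5-fold, 54% at 2-fold, 94% at 4-fold and 98% at 8-fold, with 18 false calls among 150. In the data themselves 1 gene passed, and whether the simulated shares carry over to them was not tested. Alternatives were RLE and upper-quartile normalization, no count filter, at least 50 counts in 2 libraries, DESeq2 1.42.0, limma-voom 3.58.1, a replicate block, leaving out single libraries, and taking out a trend over GC content and exon length (natural spline, 4 degrees of freedom). Use of the longest transcript in place of merged exons was chosen after seeing the data.

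Members and lists were chosen with earlier results of these data known. Values per library are given for the leading 3 collagens of each class, those with an unadjusted p under 0.05 and the chains of types I, IV, V and VI, and, of each pathway list, for up to 4 genes with an unadjusted p under 0.05 or else the 2 of highest CPM. Other named genes were added after their values were seen. P-values set the difference between groups against the spread between samples, with 2 libraries per group, and that spread may be technical. Counts of replicates differed by more than sampling noise (chi-square per degree of freedom 31.6 between controls and 41.9 between knockouts).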

Additional observations from a re-analysis of the deposited data

How the results depend on the processing

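Of 371 log2 fold changes (29 collagens under 13 alternatives, fewer where a filter dropped a gene), 332 kept direction and side of the threshold, 12 in 9 collagens passed it and 27 in 10 collagens changed sign. No cause was tested. The number called was 9 without a count filter (Col12a1, Col14a1, Col1a1, Col1a2, Col4a1, Col4a5, Col5a1, Col6a1 and Col7a1) and 1 with DESeq2 (Col5a1). Calls with single libraries left out are not listed, because there the lone library is assumed to vary like the other group. With the replicate block 1 was called (Col5a1, edgeR adjusted p = 0.015). Same-numbered samples had deviations correlated at 0.12 over all genes and -0.10 over collagens, and with 2 pairs the numbers are not shown to pair the samples.

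The median of all collagens was -0.29 with the length and GC trend taken out, -0.26 with that trend on the longest transcript, and -0.54 to -0.27 with single libraries left out. That of fibrillar collagens was -0.61 with at least 50 counts, -0.51 with limma-voom, -0.14 with either trend, and -0.56 to -0.12 with libraries left out. That of type IV collagens was -0.32 and -0.25 with the trends, and -0.50 to -0.36 with libraries left out. That of transmembrane collagens ran from -0.41 to 0.14, the latter without control 1.

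Col16a1 changed sign to 0.0015 with RLE and 0.0016 with DESeq2. With the trend on merged exons and on the longest transcript, sign changed to 0.12 and 0.14 for Col16a1, 0.037 and 0.093 for Col17a1, 0.076 and 0.096 for Col5a2, 0.029 and 0.086 for Col5a3, and 0.016 and 0.065 for Col8a2. With single libraries left out, values crossed 0 and ran from -0.085 to 0.054 for Col16a1, -0.13 to 0.019 for Col17a1, -0.82 to 0.39 for Col23a1, -0.20 to 1.39 for Col27a1, -0.82 to 1.59 for Col3a1, -0.20 to 0.040 for Col5a2, -1.74 to 0.61 for Col5a3, -0.56 to 0.055 for Col8a1, -0.13 to 0.077 for Col8a2 and -0.31 to 0.49 for Col9a3. At this depth, 3 counts correspond to 0.102 to 0.18 CPM, which limits the rarest collagens.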
